A study of Mus musculus with 11 samples.

Results

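The 10 genes described here encode receptors, soluble ligands, tethers, integrin chains and a signalling adaptor with which macrophages bind and engulf dying cells. They are Axl, Mertk, Tyro3, Gas6, Pros1, Mfge8, Timd4, Itgav, Itgb5 and Elmo1. They were taken by gene name from the 37375 genes of the series, of which 35118 are in the table that compares genotypes and 35597 in the table that compares tumor with spleen. All 10 were in both tables and all 10 passed the filter on low reads in both. Axl was picked because its level was lower in KO_TAM, so its values between genotypes are a description and carry no test. The rule names no measured value for the other 9 genes.

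KO_TAM were 4 libraries of tumor-associated macrophages from C57BL/6 mice of genotype LysMCre;Sin1fl/fl. WT_TAM were 4 libraries of tumor-associated macrophages from Sin1fl/fl mice, which carry the same floxed alleles with no Cre, and WT_SP were 3 libraries of splenic macrophages from Sin1fl/fl mice. All mice were 6 to 8 weeks old when 500000 cells of Lewis lung carcinoma, a mouse lung tumor line, were placed under the skin, and tissue was taken on day 14. Sin1, encoded by Mapkap1, is a subunit of the kinase complex mTORC2, and LysM-Cre, expressed from the Lyz2 locus, acts in the myeloid lineage and so not in macrophages alone. Cells were sorted by flow cytometry as F4/80+ leukocytes without Ly6G and Ly6C. The tumor gate took CD11b+ cells, and the splenic gate took cells with low CD11b and no T cell receptor. The labels do not say whether each library is 1 mouse, so each p measures only the spread of these libraries, which may be technical.

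Axl, Mertk and Tyro3 form a family of receptor tyrosine kinases. They do not touch a dying cell directly: Gas6 and protein S, the product of Pros1, bind phosphatidylserine on its surface with one end and the receptor with the other, and Gas6 is the ligand that Axl uses. Mfge8 bridges phosphatidylserine to the integrin made of Itgav and Itgb5, Timd4 binds the lipid itself and holds the cell, and Elmo1 works with Dock proteins to activate Rac and move the cytoskeleton around the prey. Axl and Mertk signalling is known for dampening inflammatory responses of macrophages, and in mice both are found on red pulp macrophages of the spleen.

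Recovered reads ranged from 7635980 to 13117099 per library, at which 3 reads correspond to between 0.211 and 0.492 CPM (recovered reads per 1000000 of the scaled library), a limit that covers counting error only. WT_TAM replicate 4, which was the shallowest, and KO_TAM replicate 2 lay apart from the rest of their groups. Between WT_TAM replicate 4 and the others, the chi-square of the reads per degree of freedom was 198 to 233, against 18.9 to 64.3 among the others, and for KO_TAM replicate 2 it was 63.3 to 77.7, against 19.9 to 31.2. Mapkap1, which checks the labels, ranged from 43.3 to 54.1 CPM in KO_TAM and from 30.7 to 71.1 CPM in WT_TAM (log2 fold change -0.22 ± 0.26 SE, limma adjusted p = 0.658). Which exon is floxed is not stated in the labels, so this check is limited. The macrophage genes Csf1r, Cd68, Fcgr1 and Adgre1 (F4/80) were read in all libraries. B cell markers summed to between 9.18 and 71.3 CPM in WT_TAM and between 5381 and 6414 CPM in WT_SP, so the splenic libraries also held much B cell RNA.

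The promoters of Axl, Gas6, Mfge8 and Itgb5 are shown because the levels of these genes in all KO_TAM libraries lay below those in all WT_TAM libraries, and that of Mertk because the groups overlapped for this close relative of Axl. Each runs from 250 bases before to 50 bases after the start that RefSeq gives on GRCm38.p6, in the direction of the gene. Capitals mark every GGGCGG or CCGCCC, the GC box of Sp1-like factors, and every GTAAACA or TGTTTAC, the core bound by FoxO factors, searched on both strands with no overlap between the motifs in these windows.
Axl, chr7:25788684-25788983, minus strand: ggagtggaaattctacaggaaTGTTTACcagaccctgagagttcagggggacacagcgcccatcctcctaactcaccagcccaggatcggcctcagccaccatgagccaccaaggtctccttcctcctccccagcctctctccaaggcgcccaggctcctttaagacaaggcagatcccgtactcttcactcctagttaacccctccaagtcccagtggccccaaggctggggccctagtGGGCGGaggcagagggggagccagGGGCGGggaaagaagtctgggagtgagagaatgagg
Mertk, chr2:128698665-128698964, plus strand: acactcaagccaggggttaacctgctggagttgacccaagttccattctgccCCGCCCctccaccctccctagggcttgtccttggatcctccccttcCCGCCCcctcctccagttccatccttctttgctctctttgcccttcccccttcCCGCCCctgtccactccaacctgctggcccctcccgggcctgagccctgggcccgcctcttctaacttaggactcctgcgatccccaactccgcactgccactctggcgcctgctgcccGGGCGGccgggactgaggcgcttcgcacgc
Gas6, chr8:13494486-13494785, minus strand: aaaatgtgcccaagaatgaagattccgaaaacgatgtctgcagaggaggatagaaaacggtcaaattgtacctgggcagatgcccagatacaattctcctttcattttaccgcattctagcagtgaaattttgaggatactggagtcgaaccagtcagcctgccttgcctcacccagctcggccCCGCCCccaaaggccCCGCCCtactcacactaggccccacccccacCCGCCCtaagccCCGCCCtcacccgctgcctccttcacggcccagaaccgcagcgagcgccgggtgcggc
Mfge8, chr7:79149011-79149310, minus strand: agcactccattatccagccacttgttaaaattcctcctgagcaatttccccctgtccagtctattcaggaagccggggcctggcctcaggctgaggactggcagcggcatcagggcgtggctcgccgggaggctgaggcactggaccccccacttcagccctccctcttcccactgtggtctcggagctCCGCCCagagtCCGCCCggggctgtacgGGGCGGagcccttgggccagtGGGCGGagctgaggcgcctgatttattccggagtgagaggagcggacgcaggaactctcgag
Itgb5, chr16:33829415-33829714, plus strand: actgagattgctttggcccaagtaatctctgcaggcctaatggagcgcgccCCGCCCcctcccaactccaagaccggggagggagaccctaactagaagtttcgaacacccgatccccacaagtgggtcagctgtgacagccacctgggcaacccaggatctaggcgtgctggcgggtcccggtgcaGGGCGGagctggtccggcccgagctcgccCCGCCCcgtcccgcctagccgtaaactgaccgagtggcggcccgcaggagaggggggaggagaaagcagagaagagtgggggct

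The Axl window held 2 GC boxes and 1 FoxO core, which lies near its upstream end. Mertk, Gas6 and Mfge8 each had 4 GC boxes and no FoxO core, and Itgb5 had 3 GC boxes and no FoxO core. Over all 10 genes, 11 such windows were found, and the FoxO core occurred in that of Axl alone. Of 32851 promoters of this length in the RefSeq table, 35.7% held the GC box and 3.65% the FoxO core. The AP-1 site (TGACTCA or TGAGTCA), the TATA box (TATAAA or TTTATA) and the E-box CACGTG were also searched, and the 5 printed windows held 0 of them, against 5.20%, 13.6% and 7.15% of all promoters. A match describes the letters of the window and does not show that a factor binds there.

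KO_TAM were set against WT_TAM to describe how sorted tumor macrophages differ between the genotypes. Axl, Gas6, Mfge8 and Itgb5 had lower levels in all 4 KO_TAM libraries than in any WT_TAM library, while Mertk, Tyro3, Pros1, Timd4, Itgav and Elmo1 overlapped between the groups. Of the 12875 genes tested, 8.72% lay lower without overlap and 6.39% higher. As Axl was picked for its lower level, its lack of overlap is a description and does not count beside that share. In limma, a linear model fitted to every gene at once, none of the 10 genes was called at an adjusted p of 0.05, and neither was any other gene (0% in each direction, with its trend and its voom form alike). At an unadjusted p under 0.05, limma trend gave 2366 genes (18.4%). The median log2 fold change was -0.57 over the 10 genes and 0.01 over the whole table. As the 10 include Axl, picked for its lower level here, their median is a description only. The genes other than Axl ran from -1.76 for Gas6 to 1.02 for Elmo1.

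Axl (chromosome 7, 25757273 to 25788705, minus strand) encodes the receptor whose ligand is Gas6. It had 346, 167, 232 and 311 CPM in KO_TAM replicates 1 to 4, against 547, 576, 516 and 572 CPM in WT_TAM replicates 1 to 4. The groups were far apart, and KO_TAM replicate 2 was the lowest library. The means were 264 ± 80.3 CPM in KO_TAM and 553 ± 27.6 CPM in WT_TAM (n = 4 each, SD), a ratio of 0.478 and a log2 fold change of -1.12, which was -0.90 without both libraries that lay apart. In bulk RNA, fewer cells of a type and less RNA per cell cannot be told apart, here and below.

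Mertk (chromosome 2, 128698956 to 128802894, plus strand), the relative of Axl that serves uptake by many resting macrophages, had 59.2, 33.5, 57.1 and 51.9 CPM in KO_TAM replicates 1 to 4. WT_TAM replicates 1 to 4 had 70.5, 65.8, 56.3 and 23.4 CPM. The ranges overlapped, and the lowest value of each group came from the library that lay apart. The log2 fold change was -0.01 ± 0.34 (SE) with a 95% interval from -0.78 to 0.75 (limma adjusted p = 0.986), and its sign turned when any of 4 libraries was left out and with another scaling. Tyro3 (chromosome 2, 119797733 to 119818104, plus strand), the third receptor of the family, was hardly read, with 0.762, 0, 0.585 and 1.94 CPM in KO_TAM against 1.39, 1.78, 1.47 and 2.94 CPM in WT_TAM. Between 0 and 22 reads stand behind each of these values, and 3 of the KO_TAM libraries lay below all WT_TAM libraries. Tyro3 passed the filter on low reads only through WT_TAM, where it is higher, so its values between genotypes are a description. Its log2 fold change was -1.03 ± 0.46 (SE, limma adjusted p = 0.269), which was -0.64 without KO_TAM replicate 2 and -0.45 when WT_TAM replicate 4 was left out too. Over all alternatives it ran from -1.79 to -0.45.

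Gas6 (chromosome 8, 13465374 to 13494490, minus strand), the ligand of Axl, had 15.6, 3.93, 17.0 and 7.50 CPM in KO_TAM replicates 1 to 4, against 40.2, 33.6, 21.5 and 42.8 CPM in WT_TAM. The groups did not overlap, and the highest KO_TAM and lowest WT_TAM libraries were both replicate 3. The means were 11.0 ± 6.30 CPM in KO_TAM and 34.5 ± 9.49 CPM in WT_TAM (n = 4 each, SD), and the log2 fold change of -1.76 ± 0.43 (SE) did not pass the test (limma adjusted p = 0.121). Pros1 (chromosome 16, 62854307 to 62929346, plus strand), which encodes the other ligand, had 25.0, 26.9, 29.9 and 17.7 CPM in KO_TAM and 45.5, 32.7, 31.3 and 11.0 CPM in WT_TAM. Here WT_TAM replicate 4 was the lowest library and the other WT_TAM libraries lay above all KO_TAM libraries. With all libraries the log2 fold change was -0.13 ± 0.38 (SE, limma adjusted p = 0.865). Exons of Gas6 share bases with Tmem255b on the opposite strand, and as no source used here gives the strand setting of the counting, reads of the shared bases cannot be told apart. Tmem255b itself did not pass the filter on low reads in either table.

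Mfge8 (chromosome 7, 79133768 to 79149060, minus strand), the bridge to the integrin, had 44.6, 48.2, 50.8 and 69.8 CPM in KO_TAM replicates 1 to 4, against 78.5, 116, 82.6 and 162 CPM in WT_TAM. All KO_TAM libraries were lower, and replicate 4 was the highest of each group. The means were 53.3 ± 11.3 CPM in KO_TAM and 110 ± 38.7 CPM in WT_TAM (n = 4 each, SD), with -0.99 ± 0.26 as the log2 fold change (SE, limma adjusted p = 0.130). Itgb5 (chromosome 16, 33829665 to 33949338, plus strand), the beta chain of that integrin, had 13.8, 9.41, 24.0 and 25.5 CPM in KO_TAM and 28.9, 31.5, 38.4 and 163 CPM in WT_TAM. WT_TAM replicate 4 stood far above the others, while the remaining WT_TAM libraries were close to the highest KO_TAM library. The log2 fold change of -1.52 (SE 0.53, at an adjusted limma p of 0.200) was -0.94 without WT_TAM replicate 4, or -0.67 with KO_TAM replicate 2 also left out. Itgav (chromosome 2, 83724397 to 83806916, plus strand), the alpha chain, had 95.9, 78.1, 62.1 and 49.2 CPM in KO_TAM and 73.8, 79.8, 59.3 and 41.7 CPM in WT_TAM. The ranges of this chain overlapped almost fully. For Itgav the log2 fold change was 0.16 ± 0.27 (SE, limma adjusted p = 0.754), which became -0.08 when both libraries that lay apart were left out.

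Timd4 (chromosome 11, 46810800 to 46844332, plus strand), the phosphatidylserine tether found on many resident macrophages of mice, had 0.915, 3.31, 7.35 and 3.44 CPM in KO_TAM and 2.42, 1.95, 14.0 and 1.86 CPM in WT_TAM. Replicate 3 was the highest of each group and the ranges overlapped (log2 fold change -0.14 ± 0.66 SE, limma adjusted p = 0.918). Elmo1 (chromosome 13, 20090596 to 20608353, plus strand), the adaptor of Dock proteins, had 118, 250, 101 and 152 CPM in KO_TAM, against 120, 88.0, 110 and 22.3 CPM in WT_TAM. The libraries that lay apart were the extremes, KO_TAM replicate 2 the highest and WT_TAM replicate 4 the lowest of all. The log2 fold change of 1.02 (SE 0.50, at an adjusted limma p of 0.301) was 0.47 without WT_TAM replicate 4, or 0.21 with KO_TAM replicate 2 also left out. Exons of Itgav and Elmo1 share bases with Gm13684 and Gm32036 on the opposite strands, to which the same limit applies as for Gas6.

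**Figure D1:**
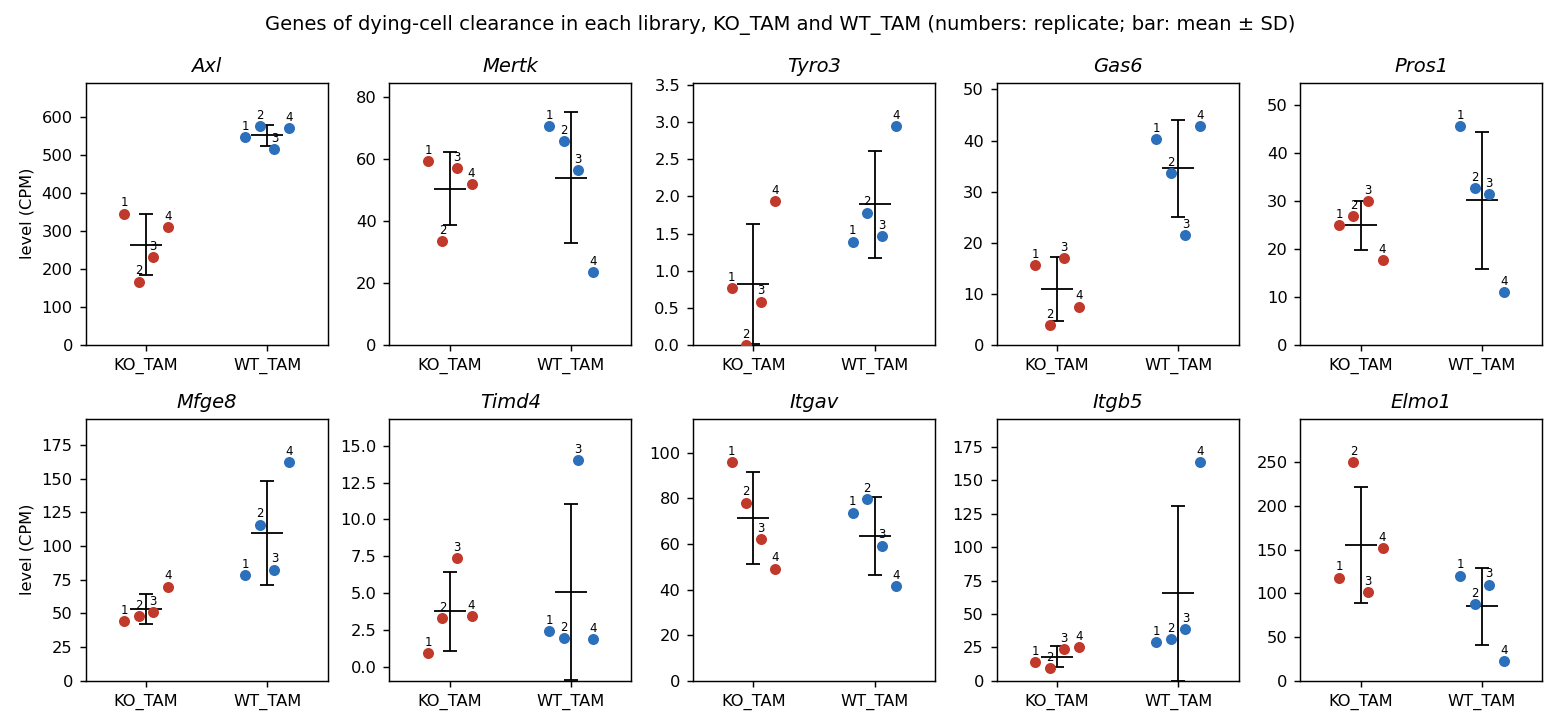
Level of each of the 10 genes in CPM (vertical axes from 0, or below 0 where an error bar needs it) in the 4 KO_TAM libraries (red) and the 4 WT_TAM libraries (blue), with replicate numbers and the mean ± SD. Axl, Gas6, Mfge8 and Itgb5 have no overlap between the groups, and WT_TAM replicate 4 stands alone at 163 CPM of Itgb5.

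Markers of other cells differed between the same libraries. Of 14 marker lists, the sums of 3 lay higher and of 2 lower in KO_TAM without overlap. Fibroblast markers summed to 125, 30.8, 241 and 92.7 CPM in KO_TAM replicates 1 to 4, against 398, 874, 396 and 538 CPM in WT_TAM. All 8 of them had lower means in KO_TAM, none was called, and none was at 0 throughout a group; Col3a1, for example, ranged from 11.8 to 147 CPM in KO_TAM and from 207 to 566 CPM in WT_TAM. The fibroblast sum thus lay lower without overlap, as Axl, Gas6, Mfge8 and Itgb5 did, and its part in those values was not tested. Neutrophil markers summed to between 519 and 1474 CPM in KO_TAM and between 137 and 333 CPM in WT_TAM, with higher means in KO_TAM for 7 of 7 genes. The largest KO_TAM means were those of Mmp9 (294 CPM), Retnlg (293 CPM) and Mmp8 (147 CPM). Their WT_TAM means were 88.8, 73.9 and 33.3 CPM. S100a8, S100a9 and Cxcr2 overlapped, with KO_TAM means of 14.0, 1.56 and 0.904 CPM beside 12.2, 0.689 and 0.684 CPM for WT_TAM. Csf3r overlapped too, its means being 74.3 (KO_TAM) and 37.7 CPM (WT_TAM). The sum of endothelial markers was 71.2 to 138 CPM in KO_TAM and 25.7 to 61.7 CPM in WT_TAM, but Pecam1, which leukocytes also express, gave a mean of 96.6 CPM of it in KO_TAM and 40.6 CPM in WT_TAM, and 5 of the 7 genes had lower means in KO_TAM. For eosinophil, basophil and mast cell markers the sum was 113 to 527 CPM in KO_TAM and 11.5 to 87.1 CPM in WT_TAM. Of this, Siglecf gave a mean of 219 CPM in KO_TAM and 46.8 CPM in WT_TAM, and 4 of the 7 genes had lower means in KO_TAM. The macrophage markers summed to between 10030 and 21206 CPM in KO_TAM and between 28692 and 39937 CPM in WT_TAM, of which Lyz2, the locus that holds the Cre, gave between 2744 and 15235 CPM in KO_TAM and between 22293 and 33744 CPM in WT_TAM. Csf1r, the receptor of macrophage growth factors, averaged 1456 CPM in KO_TAM and 1572 CPM in WT_TAM, and Adgre1 averaged 850 CPM in KO_TAM and 455 CPM in WT_TAM. The part of each of these marker differences in the values of the 10 genes was not tested.

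**Figure D2:**
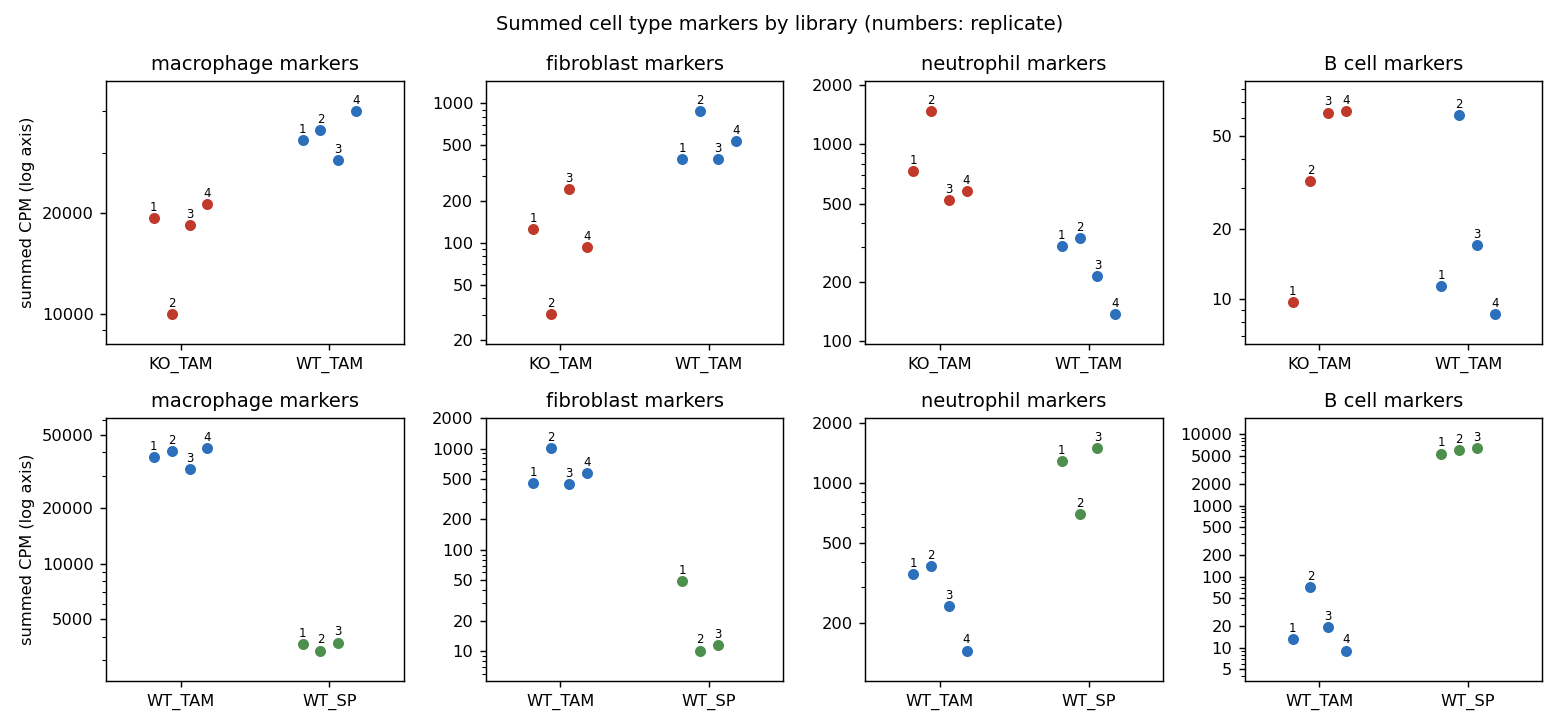
Summed CPM of the marker lists (log axes) per library, with KO_TAM (red) beside WT_TAM (blue) in the upper row and WT_TAM (blue) beside WT_SP (green) in the lower row. The fibroblast sums of KO_TAM, 30.8 to 241 CPM, lie below those of WT_TAM, and the B cell sums of WT_SP start at 5381 CPM, where the highest WT_TAM library has 71.3 CPM.

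Which ligand and which receptor dominates was asked within each library, by ratios of levels per gene length. For the same length, Gas6 stood at 0.790, 0.185, 0.717 and 0.535 times Pros1 in KO_TAM replicates 1 to 4, against 1.12, 1.30, 0.869 and 4.91 times in WT_TAM. Pros1 was thus the more abundant ligand transcript in all KO_TAM libraries, and Gas6 in 3 of 4 WT_TAM libraries, with no overlap. The geometric means were 0.486 in KO_TAM and 1.58 in WT_TAM, a difference of -1.70 on the log2 scale (two-sided exact permutation p = 0.0286, the smallest that 4 against 4 libraries allow). Adjusted over the 3 ratios tested, the exact permutation p was 0.0857, so the difference did not pass. It was -1.15 without WT_TAM replicate 4, -1.23 without KO_TAM replicate 2 and -0.69 without both (exact permutation p = 0.1, the smallest possible then). The ratio of Axl to Mertk was 5.03, 4.30, 3.50 and 5.15 in KO_TAM and 6.68, 7.54, 7.89 and 21.0 in WT_TAM, which is a description, since Axl was chosen on this contrast. In every library of both groups Axl was read more than Mertk.

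**Figure D3:**
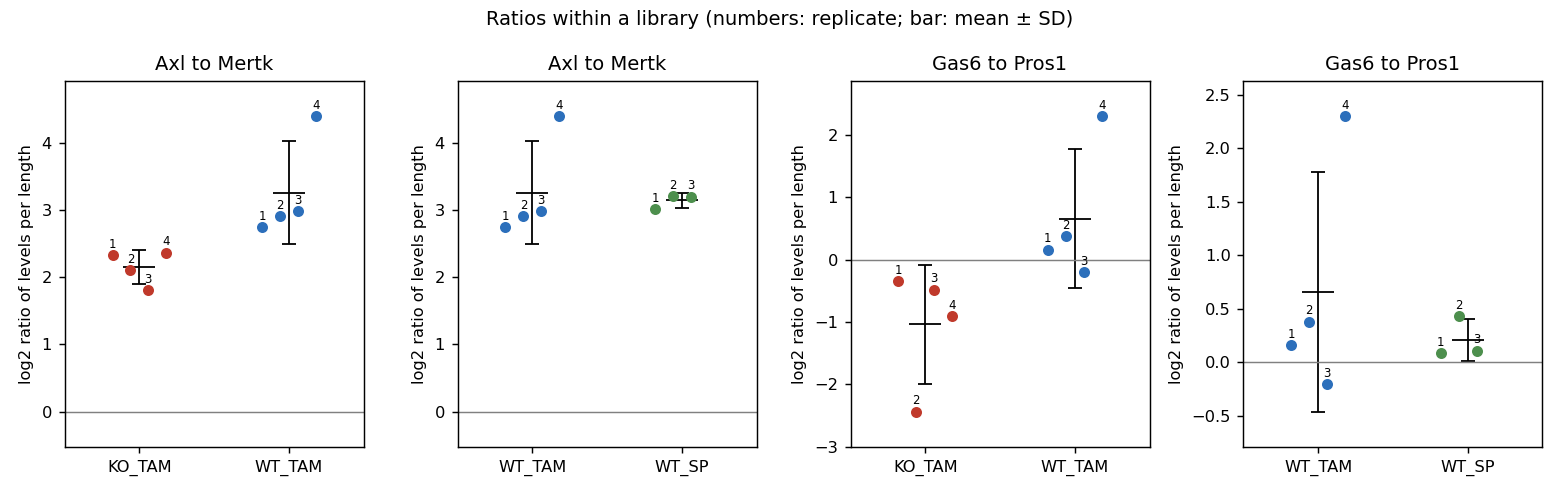
Log2 ratio, within a library, of the levels per length of Axl to Mertk (left pair of panels) and of Gas6 to Pros1 (right pair), for KO_TAM (red) beside WT_TAM (blue) and WT_TAM beside WT_SP (green), with replicate numbers and the mean ± SD. The line at 0 marks equal levels. Gas6 lies below Pros1 in all KO_TAM libraries, and WT_TAM replicate 4 is the highest in each panel.

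Around these genes, 83 others of dying-cell clearance were followed in 6 lists by step. Of the 74 that were tested between genotypes, 0 were called, against 0% of all genes, and 6 lay higher and 6 lower in KO_TAM without overlap, against 6.39% and 8.72% of all genes. Their median log2 fold change was 0.22, against 0.01 over all genes. Without both libraries that lay apart, 1 of them, C1qa, was called lower, in an alternative chosen after the data were seen. The complement chains C1qa, C1qb and C1qc, which coat dying cells, all lay lower without overlap, and C1qb averaged 1855 ± 439 CPM in KO_TAM and 4209 ± 2371 CPM in WT_TAM (n = 4 each, SD; log2 fold change -1.07 ± 0.34 SE, limma adjusted p = 0.175). Cd36, a scavenger receptor that binds oxidised lipid of dying cells, lay higher without overlap, with 269 ± 104 CPM in KO_TAM against 85.1 ± 41.6 CPM in WT_TAM (n = 4 each, SD; log2 fold change 1.78 ± 0.51 SE, limma adjusted p = 0.146). Cd36, C1qa and C1qc are named after their values were seen.

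No gene of the other lists was called either. Lgals3, a lectin that can act as an opsonin, averaged 5368 ± 593 CPM in KO_TAM and 5027 ± 1424 CPM in WT_TAM, with overlap. Among the signalling genes, Rac2 averaged 636 ± 249 CPM in KO_TAM and 428 ± 71.5 CPM in WT_TAM, and Cdc42 averaged 1041 ± 47.2 CPM in KO_TAM and 946 ± 217 CPM in WT_TAM. These GTPases, which drive the growth of actin, also overlapped. Of the phagosome list, the protease Ctsd averaged 5226 ± 967 CPM in KO_TAM and 3784 ± 500 CPM in WT_TAM without overlap (log2 fold change 0.46 ± 0.19 SE, limma adjusted p = 0.247). The cholesterol carrier Npc2 averaged 690 ± 98.1 CPM in KO_TAM and 829 ± 272 CPM in WT_TAM, with overlap. Ucp2, a mitochondrial carrier that eases continued uptake, and the glucose transporter Slc2a1, both of the lipid response list, had adjusted limma p-values of 0.412 and 0.818. Sirpa, the receptor of the signal that restrains engulfment, averaged 801 ± 86.7 CPM in KO_TAM and 659 ± 162 CPM in WT_TAM, and Socs3, a brake on cytokine signals, averaged 638 ± 58.7 CPM in KO_TAM and 600 ± 173 CPM in WT_TAM. Neither separated the groups. Of the genes that draw macrophages to dying cells, Cx3cr1, the fractalkine receptor, averaged 35.5 ± 19.2 CPM in KO_TAM and 113 ± 36.9 CPM in WT_TAM without overlap (n = 4 each, SD), with -1.76 ± 0.40 as the log2 fold change (SE, limma adjusted p = 0.113). The nucleotide receptor P2ry6 averaged 121 ± 26.4 CPM in KO_TAM and 124 ± 21.1 CPM in WT_TAM.

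The second comparison, WT_TAM against WT_SP, asks how tumor macrophages differ from splenic macrophages of mice with the same tumor and genotype. It uses the same WT_TAM libraries as the first, so the comparisons are not independent, and its CPM are scaled within another table. Of the 10 genes, Gas6, Pros1, Mfge8, Itgav and Itgb5 were higher in WT_TAM at an adjusted p of 0.05 and Timd4 was lower. Axl, Mertk, Tyro3 and Elmo1 were not called. Among the 14239 genes tested, 23.1% were called higher and 23.6% lower. The count of 5 higher genes of 10 stands beside the 23.1%, and the 1 lower gene beside the 23.6%. Without overlap, 5 of the 10 lay higher and 2 lower, against 26.3% and 29.8% of all genes tested. Over the 10 genes the median log2 fold change was 0.69, and -0.07 over all genes.

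None of the receptors was called between the sites. Axl had 631, 665, 584 and 605 CPM in WT_TAM replicates 1 to 4, against 671, 706 and 573 CPM in WT_SP. The ranges overlapped, with means of 621 ± 34.9 CPM in WT_TAM (SD, n = 4) and 650 ± 68.7 CPM in WT_SP (SD, n = 3). The log2 fold change of -0.06 ± 0.16 (SE) had a 95% interval from -0.43 to 0.30 (limma adjusted p = 0.781). A change within that interval, which is not adjusted for the number of genes, is therefore not excluded. Mertk had 81.2, 75.9, 63.7 and 24.8 CPM in WT_TAM, against 71.3, 65.5 and 53.7 CPM in WT_SP. Without WT_TAM replicate 4, which again was the lowest, its log2 fold change of -0.17 (SE 0.39, at an adjusted limma p of 0.748) was 0.21. Tyro3 had 1.60, 2.06, 1.66 and 3.11 CPM in WT_TAM and 2.54, 1.24 and 2.64 CPM in WT_SP, with 16 to 36 reads per library and full overlap (limma adjusted p = 0.998).

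Both ligands were higher in tumor macrophages. Gas6 had 46.4, 38.8, 24.4 and 45.2 CPM in WT_TAM, against 6.20, 7.49 and 7.26 CPM in WT_SP. The groups were well apart, and the log2 fold change was 2.35 ± 0.26 (SE, limma adjusted p = 0.000112). Pros1 had 52.4, 37.7, 35.5 and 11.6 CPM in WT_TAM, against 7.40, 7.02 and 8.51 CPM in WT_SP. Even the lowest tumor library, replicate 4, lay above the spleen, and the log2 fold change was 1.92 ± 0.45 (SE, limma adjusted p = 0.00798). Their ratio per length overlapped, at 1.12, 1.30, 0.869 and 4.91 in WT_TAM and 1.06, 1.35 and 1.08 in WT_SP (log2 difference 0.45, two-sided exact permutation p = 0.8, adjusted p = 0.914). For Axl to Mertk the ratios were 6.68, 7.54, 7.89 and 21.0 in WT_TAM and 8.11, 9.27 and 9.19 in WT_SP (log2 difference 0.11, two-sided exact permutation p = 0.914, adjusted p = 0.914). Without WT_TAM replicate 4 the other WT_TAM ratios all lay below the splenic ones, a difference of -0.27 (exact permutation p = 0.1, the smallest possible then). With 4 libraries against 3, no exact permutation p can go below 0.0571.

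Mfge8 had 90.4, 134, 93.5 and 171 CPM in WT_TAM, against 35.7, 37.0 and 35.6 CPM in WT_SP, whose libraries were almost equal (log2 fold change 1.70 ± 0.24 SE, limma adjusted p = 0.000583). Its integrin partners rose as well. Itgav had 85.0, 92.2, 67.1 and 44.1 CPM in WT_TAM, against 28.3, 23.5 and 27.3 CPM in WT_SP (log2 fold change 1.39 ± 0.26 SE, limma adjusted p = 0.00273). Itgb5 had 33.4, 36.4, 43.5 and 173 CPM in WT_TAM, against 11.7, 9.73 and 9.39 CPM in WT_SP (log2 fold change 2.37 ± 0.53 SE, limma adjusted p = 0.00587). Neither overlapped, and without WT_TAM replicate 4, which was far above the rest, the log2 fold change of Itgb5 was 1.83.

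Timd4 had 2.79, 2.25, 15.9 and 1.97 CPM in WT_TAM, against 18.7, 27.9 and 36.7 CPM in WT_SP. The tumor libraries were lower without overlap, replicate 3 being close to the lowest splenic library. The log2 fold change was -2.64 ± 0.63 (SE, limma adjusted p = 0.00875), and -3.28 without WT_TAM replicate 3. Elmo1 had 139, 102, 125 and 23.6 CPM in WT_TAM, against 171, 174 and 178 CPM in WT_SP. All tumor libraries were lower, with replicate 4 far below the rest, and the log2 fold change of -1.11 ± 0.55 (SE) did not pass (limma adjusted p = 0.131). Without that library it was smaller, -0.53, and passed (limma adjusted p = 0.00194, range 0.00194 to 0.248 over the alternatives).

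**Figure D4:**
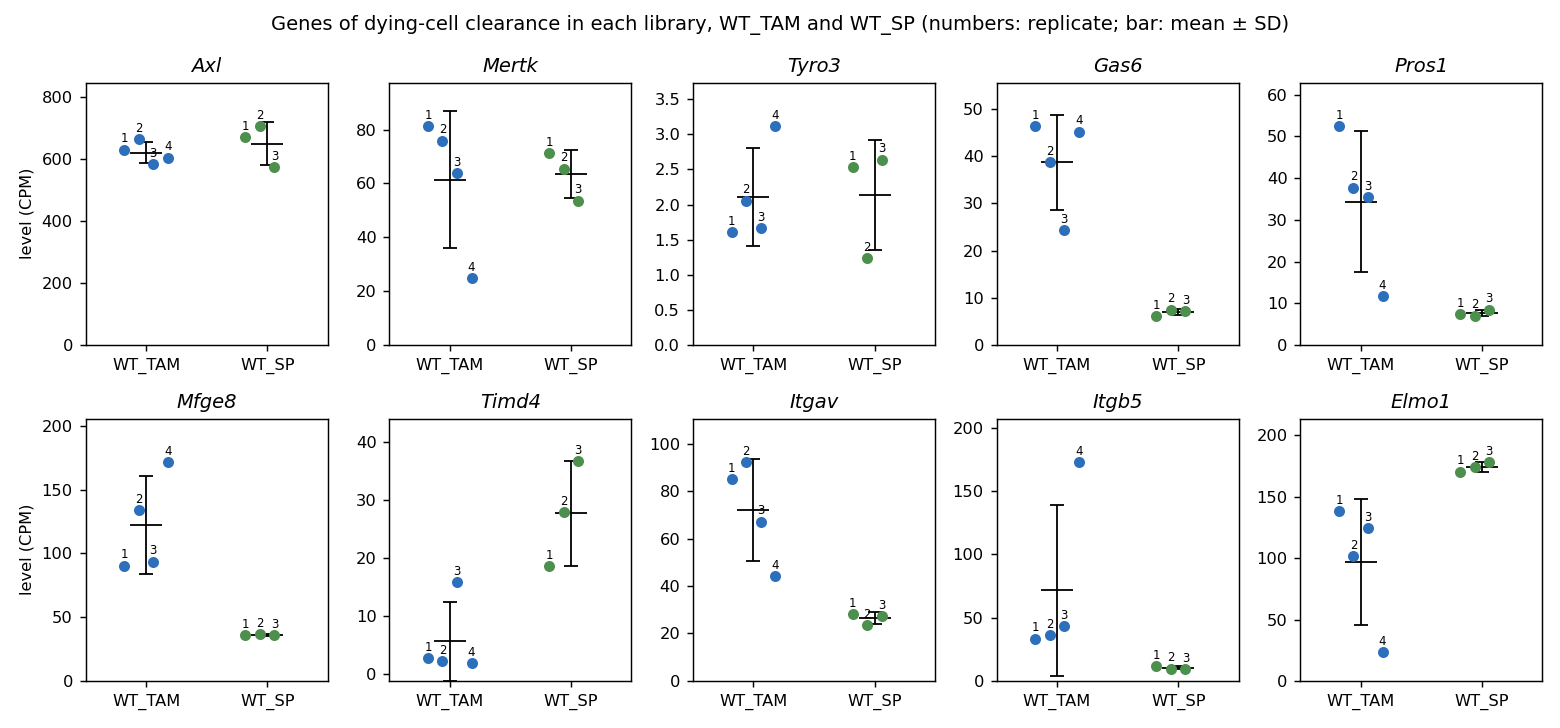
Level of each of the 10 genes in CPM (vertical axes from 0, or below 0 where an error bar needs it) in the 4 WT_TAM libraries (blue) and the 3 WT_SP libraries (green), with replicate numbers and the mean ± SD. Gas6, Pros1, Mfge8, Itgav and Itgb5 lie higher in all WT_TAM libraries, Timd4 and Elmo1 lie lower, and Axl is level, with means of 621 CPM in WT_TAM and 650 CPM in WT_SP.

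**Figure D5:**
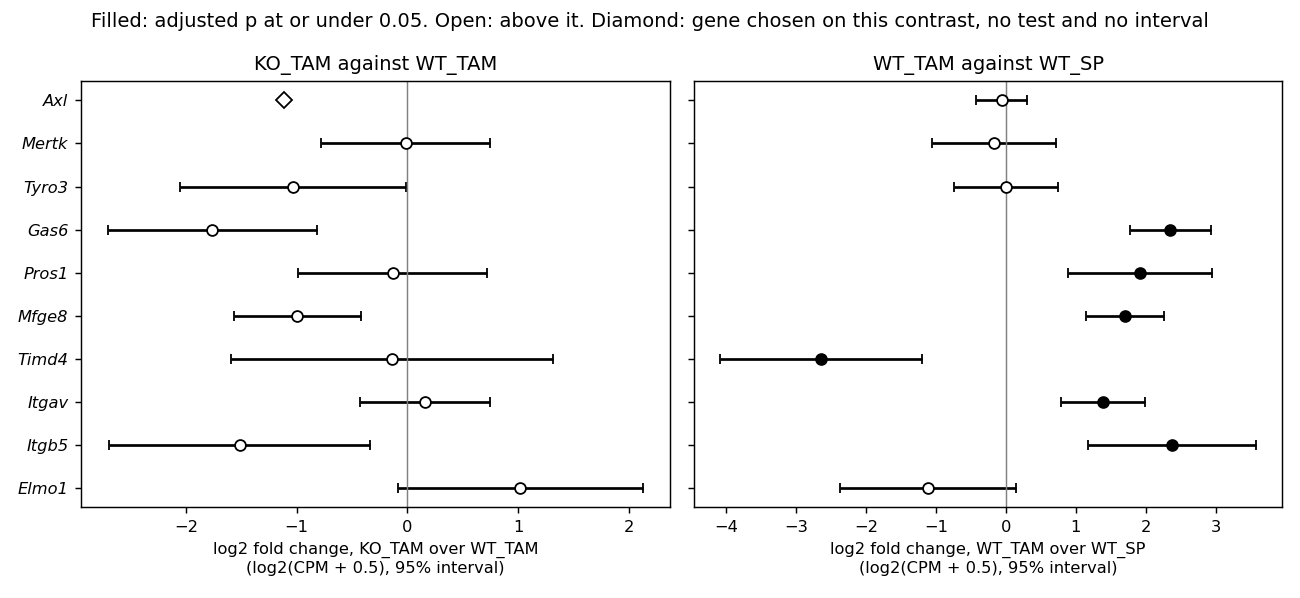
Log2 fold change of each gene on the log2(CPM + 0.5) scale with its 95% interval, for KO_TAM over WT_TAM (left) and WT_TAM over WT_SP (right); filled points passed an adjusted p of 0.05, and the diamond is Axl between genotypes, shown with no interval. Intervals are not adjusted for the number of genes. The panels share the WT_TAM libraries. No point is filled on the left and 6 are on the right, from Timd4 at -2.64 to Itgb5 at 2.37.

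Cell type markers differed between the sites. Of the 14 marker lists, the sums of 4 lay higher and of 7 lower in WT_TAM without overlap, and 3 overlapped. Red pulp macrophage markers summed to between 265 and 759 CPM in WT_TAM and between 3876 and 4352 CPM in WT_SP, with Spic, the factor that defines these cells, at 1.69 CPM in WT_TAM and 162 CPM in WT_SP on average. Fibroblast markers summed to between 449 and 1010 CPM in WT_TAM and between 10.2 and 48.9 CPM in WT_SP, and all 8 were called higher. Macrophage markers summed to between 32496 and 42246 CPM in WT_TAM and between 3375 and 3730 CPM in WT_SP, with 6 of 8 called higher. Epithelial or carcinoma cell markers summed to between 185 and 412 CPM in WT_TAM and between 11.2 and 19.4 CPM in WT_SP, with 2 of 6 called higher and 1 lower. The sum of platelet and megakaryocyte markers was also higher, at 298 to 1044 CPM in WT_TAM and 56.3 to 96.6 CPM in WT_SP, with 1 of 5 called higher and 4 lower. These 4 sums, fibroblast markers included, lay in the direction of Gas6, Pros1, Mfge8, Itgav and Itgb5. Of the platelet sum, Pf4, the 1 gene called higher, gave a mean of 569 CPM in WT_TAM and 22.4 CPM in WT_SP. Of the epithelial sum, Cdh1 and Sox9 gave means of 213 and 85.1 CPM in WT_TAM and 3.69 and 1.18 CPM in WT_SP. Of the 6 epithelial genes, 3 had lower means in WT_TAM. Lyz2 gave 30708 CPM of the macrophage sum in WT_TAM and 1796 CPM in WT_SP. Sums led by so few genes do not show how much RNA of a cell type was present. T or NK cell markers summed to between 50.5 and 61.1 CPM in WT_TAM and between 573 and 634 CPM in WT_SP, and neutrophil markers to between 145 and 384 CPM in WT_TAM and between 695 and 1491 CPM in WT_SP. Of the 7 neutrophil genes, 3 had higher and 4 lower means in WT_TAM, with 0 called higher and 3 lower. S100a8 and S100a9 gave means of 530 and 428 CPM of that sum in WT_SP. Of these lists, 0 genes were at 0 in every library of a group, and their part in the site differences of the 10 genes was not tested. Marker genes near 0 in a group, such as Lum in WT_SP and Gp9 in WT_TAM, passed the filter on low reads only through the other group.

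Of the 83 other genes of dying-cell clearance, 78 were tested between sites, and 36 were higher and 15 lower in WT_TAM, against 23.1% and 23.6% of all genes. Other receptors and bridging proteins had 13 higher and 2 lower of 17 tested, with a median log2 fold change of 2.51. Of the 2 lower genes, Havcr1 passed the filter on low reads only through WT_SP (0.0927 ± 0.107 CPM in WT_TAM, 2.77 ± 0.877 CPM in WT_SP). Its lower level is thus a description. Stab1, which encodes stabilin-1, a receptor for phosphatidylserine, averaged 367 ± 39.5 CPM in WT_TAM and 1.66 ± 0.517 CPM in WT_SP (log2 fold change 7.44 ± 0.21 SE, limma adjusted p = 3.46e-07). Its relative Stab2 went the other way, at 1.03 ± 0.539 CPM in WT_TAM and 51.7 ± 7.17 CPM in WT_SP (log2 fold change -5.14 ± 0.30 SE, limma adjusted p = 2.97e-06). Lgals3 averaged 5609 ± 1346 CPM in WT_TAM and 219 ± 4.63 CPM in WT_SP, and the scavenger receptor Scarf1 averaged 33.3 ± 7.31 CPM in WT_TAM and 1.47 ± 0.323 CPM in WT_SP.

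Engulfment signalling was divided, with 5 genes higher, 6 lower and 8 not called. Of the Dock and Elmo proteins, Dock1 averaged 24.1 ± 8.66 CPM in WT_TAM and 4.48 ± 0.650 CPM in WT_SP (log2 fold change 2.23 ± 0.33 SE), while Elmo3 averaged 0.734 ± 0.188 CPM in WT_TAM and 4.25 ± 0.345 CPM in WT_SP (log2 fold change -1.96 ± 0.25 SE). Elmo3 passed the filter on low reads only through WT_SP, where it is high, so its lower level is a description. Likewise Gulp1, counted among the 5 higher, passed only through WT_TAM (1.33 ± 0.407 CPM, against 0.225 ± 0.158 CPM in WT_SP). Rac2, the Rac of blood cells, was lower, at 483 ± 95.0 CPM in WT_TAM and 1396 ± 94.5 CPM in WT_SP, and the kinase Src was higher, at 22.1 ± 15.1 CPM in WT_TAM and 1.82 ± 0.517 CPM in WT_SP. Rac2 is expressed in lymphocytes too, whose markers were high in WT_SP. Phagosome genes had 8 higher and 2 lower of 15, among them the lysosomal membrane protein Lamp2 (563 ± 151 CPM in WT_TAM and 140 ± 4.30 CPM in WT_SP), Ctsd (4269 ± 705 CPM in WT_TAM and 1348 ± 73.6 CPM in WT_SP) and Npc2 (924 ± 258 CPM in WT_TAM and 231 ± 9.60 CPM in WT_SP). Rubcn, a regulator of phagocytosis that uses autophagy proteins, was lower, at 22.2 ± 5.86 CPM in WT_TAM and 160 ± 11.8 CPM in WT_SP. Apart from Elmo3 and Gulp1, the limma adjusted p of the genes named here ranged from 2.85e-05 for Rubcn to 0.000722 for Dock1.

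The response to engulfed lipid also went both ways, with 4 genes higher and 3 lower of 11. Slc2a1 was higher, at 575 ± 170 CPM in WT_TAM and 40.1 ± 3.23 CPM in WT_SP. Nr1h3, the liver X receptor that senses sterols and in turn is known to raise Mertk, was lower, at 20.8 ± 5.71 CPM in WT_TAM and 82.7 ± 1.18 CPM in WT_SP (log2 fold change -2.01 ± 0.23 SE, limma adjusted p = 0.000159). Mylip and the lipid sensor Pparg were lower as well, with log2 fold changes of -2.22 ± 0.30 and -2.44 ± 0.33 (SE). In the same list Abca1 was higher (log2 fold change 2.15 ± 0.30 SE, limma adjusted p = 0.000481), as was Nr1h2 (0.50 ± 0.16 SE, limma adjusted p = 0.0323). Abcg1 was not called (-0.25 ± 0.30 SE, limma adjusted p = 0.527). Abca1, Nr1h2 and Abcg1 are named after their values were seen. Of 10 restraint genes, 3 were higher and none lower: Sirpa (747 ± 205 CPM in WT_TAM and 327 ± 60.3 CPM in WT_SP), Socs1 (51.7 ± 14.0 CPM in WT_TAM and 14.1 ± 1.87 CPM in WT_SP) and Socs3 (680 ± 213 CPM in WT_TAM and 51.6 ± 4.86 CPM in WT_SP). Socs1 and Socs3 are induced by the Axl and Mertk receptors among other signals. Of 6 receptors that draw cells to prey, Cx3cr1, P2ry2 and P2ry6 were higher. S1pr1, a receptor of sphingosine phosphate that lymphocytes also use, and Gpr34 were lower, and S1pr1 averaged 23.2 ± 10.4 CPM in WT_TAM and 388 ± 30.9 CPM in WT_SP. P2ry6 averaged 139 ± 17.8 CPM in WT_TAM and 4.35 ± 0.998 CPM in WT_SP (log2 fold change 4.86 ± 0.20 SE, limma adjusted p = 7.15e-07).

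Levels can be set between genes only per length, here as CPM per kilobase of the length in the tables. In the genotype table, KO_TAM had Axl at 63.6 ± 19.3 and Elmo1 at 53.2 ± 22.8, which overlapped, followed by Mfge8 at 25.8 ± 5.46, Itgav at 18.8 ± 5.31 and Mertk at 14.1 ± 3.28 CPM per kilobase (SD, n = 4). In WT_TAM, Axl stood at 133 ± 6.65 CPM per kilobase, above every other gene in every library, and Mfge8 was next at 53.1 ± 18.7 CPM per kilobase. By mean, Axl was thus the most abundant of the 10 transcripts in both groups, and lay apart from the next gene in WT_TAM but not in KO_TAM. In KO_TAM replicate 2, which lay apart, Elmo1 was above Axl (85.6 against 40.3 CPM per kilobase). Within each of the other KO_TAM libraries Axl was above Elmo1. As Axl was chosen on this contrast, the difference between the groups is a description. The lowest were Timd4, at 1.73 ± 1.23 CPM per kilobase in KO_TAM and 2.33 ± 2.75 in WT_TAM, and Tyro3, at 0.218 ± 0.216 in KO_TAM and 0.503 ± 0.191 in WT_TAM. In WT_SP the order was Axl (157 ± 16.5 CPM per kilobase), Elmo1 (59.8 ± 1.30), Mertk (17.8 ± 2.51), Mfge8 (17.5 ± 0.362) and Timd4 (12.8 ± 4.15), and only Mertk and Mfge8 among these neighbours overlapped (SD, n = 3). Gas6 and Pros1 there stood at 2.69 ± 0.264 and 2.33 ± 0.234 CPM per kilobase and overlapped.

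The genes whose pattern was most like that of Axl were found by the root mean square difference of log2(CPM + 0.5), centred on each gene's mean, from all other tested genes. Over the 8 libraries of the genotype table these were Hmgb3 (0.101), Fdft1 (0.153), Uhrf1 (0.186), Paqr4 (0.191) and Mfsd3 (0.196). Hmgb3 encodes a chromatin protein, Fdft1 squalene synthase and Uhrf1 a factor that keeps DNA methylation at replication. Hmgb3 averaged 9.26 ± 2.51 CPM in KO_TAM and 19.8 ± 0.653 CPM in WT_TAM, and Fdft1 averaged 34.0 ± 8.75 CPM in KO_TAM and 72.9 ± 6.67 CPM in WT_TAM (n = 4 each, SD). Neither was called (limma adjusted p = 0.106 and 0.102). Their lower levels in KO_TAM follow from being chosen for likeness to Axl in these libraries, so they are a description only. Over the 7 libraries of the site table, the nearest to Axl were Coq9 (0.0469), Znhit6 (0.0592) and Ticam1 (0.0704), all of them level between the sites. Nearest to Mertk were Nufip2 (0.0772), Copa (0.0784) and Atp6v0a2 (0.0828).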

How the data were processed

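RNA was sequenced from sorted macrophages in 11 libraries, and groups and replicate numbers come from the sample titles. Per the submitters' processing notes, reads were handled with the build mm10 and with TopHat2, HISAT2, HISAT, SAMtools, HTSeq and DESeq2, but no source used here gives their roles or settings. The 2 deposited tables hold no counts, and their values were treated as a score. By their steps, the authors' values are reads over gene length and scaled library size, multiplied by a library factor that changes from gene to gene in a fixed cycle. Whole reads were recovered from the steps between these values. Of the genotype values, 98 (in 35 genes) gave no whole number and were restored, from the site table (49) or by the 1 of 54 round amounts that made them whole (49). They include 0 of the 10 genes and 3 of the 83 other clearance genes. All numeric columns were used, so 0 were left out.

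CPM are recovered reads per 1000000 of library total times the library's factor. Each comparison was fitted in its own table and with its own groups, as log2(CPM + 0.5) using limma 3.58.1 (R 4.3.3) with trend and robust moderation of variances. On this scale low genes change less than in CPM. Genes entered with 15 reads in all and, in as many libraries as the smaller group has, at least the CPM that 10 reads make in a library of median size. P-values were adjusted over all genes by Benjamini-Hochberg with a threshold of 0.05. The 3 ratios within libraries were compared by exact permutation in scipy 1.17.1. The fit was also run on simulated data in which all genes had the same relative spread and no library lay apart. That run therefore does not gauge its error rates at the spread of these libraries. No pair of libraries within a group agreed within sampling noise, and each counts as 1 replicate.

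The 10 genes, the other lists and the tests were chosen with earlier results of these data known. All 10 genes are named. Of each other list, the called genes are named, or the 4 with the smallest p where more were called, and the 2 highest where none was called. Alternatives were another scaling, filter, pseudocount and test, library weights, a replicate block, the values as deposited, and leaving out libraries. Coordinates of genes are from GENCODE M21 on GRCm38, the assembly that mm10 names, and promoters from RefSeq on GRCm38.p6.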

Additional observations from a re-analysis of the deposited data

Results flagged for a closer look

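The highest library of a group stood far from its nearest neighbour, relative to the group's range, for 2 of the 10 genes, both in WT_TAM and in both tables. Timd4 had 14.0 CPM in WT_TAM replicate 3 in the genotype table and 15.9 CPM in the site table, where the other WT_TAM libraries had at most 2.42 and 2.79 CPM. Its gap made up 0.954 and 0.941 of the range. Itgb5 had 163 CPM in WT_TAM replicate 4 in the genotype table and 173 CPM in the site table, where the other WT_TAM libraries had at most 38.4 and 43.5 CPM. Its gap made up 0.929 and 0.927 of the range. These shares are above Dixon's 95% critical value for 4 libraries. In all, 30 groups of 4 were examined, and chance alone passes it in about 1 of 20 groups. The tables hold the same WT_TAM libraries, so the 4 values are 2 observations.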

How the results depend on the processing

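Between genotypes, genes called higher and lower numbered 20 and 73 without a filter, 140 and 247 with library weights, 21 and 44 without both libraries that lay apart, and 4 and 0 with the values as deposited. Of the 10 genes, Mfge8 was then lower with weights (limma adjusted p = 0.0364, range 0.0364 to 0.286 over alternatives). Axl fell under the threshold without the filter, with weights and without both libraries. As Axl was chosen on this contrast, that is a description and lends no support. Also without both, 1 clearance gene (C1qa) was lower. Correlations of same-numbered deviations were -0.162 to 0.198 in the genotype table and -0.0937 to 0.098 in the site table. Differently numbered libraries had -0.318 to 0.295 and -0.1 to 0.158. The numbers thus gave no sign of pairing, but these correlations cannot decide whether libraries were paired, and the labels do not say. With a replicate block, 0 genes were called between genotypes, and 4531 higher and 4585 lower between sites, where 2 of the 10 genes were lower and Mertk stood at 0.21. As WT_SP has no replicate 4, the block takes WT_TAM replicate 4 out of the site estimates. Its fold changes there are those found without that library, so the 2 alternatives are not separate checks. Between sites, 2 of the 10 genes were also lower, with Elmo1 added, under weights and without WT_TAM replicate 4.

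Signs of uncalled log2 fold changes turned for 4 genes between genotypes: Mertk (0.0075 with another scaling, -0.37 to 0.17 when 1 library was left out), Pros1 (-0.55 to 0.12), Timd4 (-0.52 to 0.49) and Itgav (-0.026 to 0.32, and -0.084 without both libraries). Between sites they turned for Mertk (0.25 with weights, -0.35 to 0.21 when 1 library was left out), Tyro3 (0.0050 with a pseudocount of 0.1, and -0.28 to 0.15) and Axl (-0.15 to 0.00019). The log2 ratio of Gas6 to Pros1 between genotypes ranged from -1.99 to -1.15 without 1 library (exact permutation p = 0.0571, the smallest possible then) and was -0.69 without both. The site ratios ranged from -0.27 to 0.29 (Axl to Mertk) and from -0.10 to 0.74 (Gas6 to Pros1), negative without WT_TAM replicate 4. Another scaling moved the median of all genes by under 0.1. Causes were not tested. Depth limits Tyro3, with at most 36 reads.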
